A study of Mus musculus with 3 samples.

Results

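Scavenger receptors are cell-surface proteins that take up modified lipoproteins, bacterial products and other polyanionic or lipid ligands. The 8 genes described here, Msr1, Marco, Colec12, Cd36, Scarb1, Olr1, Stab1 and Cd163, were chosen by symbol and are 8 of the 55536 annotated genes, and of the 22015 nuclear protein-coding ones. RNA came from the cytosol of macrophages that had been grown from bone marrow of C57BL/6J mice. The cells had been exposed to Lipid A, the part of bacterial endotoxin that binds Toll-like receptor 4, at 100 ng/ml over 12 h, kept without it for 12 h and given 100 ng/ml again for 25 min. All 3 libraries of total RNA depleted of ribosomal RNA belong to this 1 group, called replicates 1 to 3 after the labels, so the values below describe 1 state and no treatment effect could be measured. Since the 3 biosamples are listed under a single donor, the SDs cover only differences among these libraries, and part of those may be technical. The labels give neither sex nor age of the animals.

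Class A receptors (Msr1, Marco, Colec12) are trimers with a collagen-like stalk. Class B receptors (Cd36, Scarb1) are loops anchored in the membrane at both ends, of which CD36 binds oxidised LDL and fatty acids and SR-BI, the product of Scarb1, exchanges cholesteryl ester with HDL. Olr1 encodes LOX-1, an oxidised LDL receptor with a C-type lectin domain that is known from endothelium. Stab1 encodes stabilin-1, a large clearance receptor of tissue macrophages and sinusoidal endothelium, and Cd163 encodes the haptoglobin-hemoglobin receptor of tissue macrophages.

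Libraries had 55517261, 21311556 and 45635014 expected counts in replicates 1, 2 and 3, of which 86.3%, 91.8% and 88.9% fell on nuclear protein-coding genes. Of 10 macrophage markers, 9 reached 1 TPM (transcripts per 1000000, a level per transcript length) in each library, led by Lyz2 at 3737 ± 895 TPM and Adgre1 at 806 ± 217 TPM (SD, n = 3), while Cx3cr1 had 0.14 TPM. Of 59 markers of 11 other cell types, 3 reached that limit, namely Ccr7 (1.37 TPM), Kdr (5.88 TPM) and Vwf (3.98 TPM), and 16 were at 0 in every library. Ngp and Pecam1 averaged 1.58 and 1.16 TPM but missed the limit in some libraries. Of all nuclear protein-coding genes, 42.1% reached it. Nuclear RNAs were counted per 1000000 counts of nuclear protein-coding genes, a scale called protein-coding CPM below. Of 6 listed, all that had counts were highest in replicate 1, to unequal degrees. Malat1 had 8329, 3480 and 1444 protein-coding CPM in replicates 1, 2 and 3, and Neat1 924, 212 and 152. Xist had 803, 42.3 and 23.1, and Rn7sk 17578, 13712 and 10583.

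The isoforms that set the receptors apart differ in a few exons, and the following stretches are shown because the shares of isoforms given below turn on them. All are from the GENCODE M21 transcripts on mm10, minus strand, printed 5′ to 3′. In Msr1-201 the ninth exon (chr8:39589290-39589478) and the coding part of the last exon (chr8:39581732-39581865) encode the cysteine-rich domain that marks the type I receptor, and capitals mark the 2 and 4 in-frame cysteine codons. Msr1-202, the type II form, leaves out both exons and reads from the end of its collagen-like part into a last exon with a stop codon, and capitals mark the 11 coding bases of that last exon, stop included (bases between chr8:39605972 and chr8:39608108).
Msr1-201 ninth exon: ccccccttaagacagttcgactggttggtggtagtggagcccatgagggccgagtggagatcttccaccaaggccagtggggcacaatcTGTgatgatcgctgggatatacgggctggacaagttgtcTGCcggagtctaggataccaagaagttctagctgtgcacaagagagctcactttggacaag
Msr1-201 last exon coding part: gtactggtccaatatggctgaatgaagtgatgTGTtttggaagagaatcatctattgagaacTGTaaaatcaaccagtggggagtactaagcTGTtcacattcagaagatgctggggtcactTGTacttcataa
Msr1-202 junction: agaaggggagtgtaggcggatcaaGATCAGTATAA

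For Scarb1, the isoforms Scarb1-201 (SR-BI) and Scarb1-202 (SR-BII) share their extracellular part and end in different cytoplasmic tails. The twelfth exon of Scarb1-201 (chr5:125281105-125281233) is printed with its stop codon in capitals. Scarb1-202 skips that exon and reads on in the next one, and the first 15 bases of that last exon are in capitals (bases between chr5:125277851 and chr5:125283913).
Scarb1-201 twelfth exon: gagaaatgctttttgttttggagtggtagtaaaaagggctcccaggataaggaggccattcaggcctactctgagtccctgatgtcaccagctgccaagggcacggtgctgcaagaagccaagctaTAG
Scarb1-202 junction: caactgcgcagccagGGTCCTGAAGACACT

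Of the 8 receptors, 6 were at or above 1 TPM in every library, beside 42.1% of all nuclear protein-coding genes at that limit. By mean TPM their order was Msr1, Marco, Stab1, Cd36, Scarb1 and Colec12, while Olr1 and Cd163 lay below it. The 8 genes had a median of 32.1 ± 12.5 TPM over libraries (SD, n = 3), beside 0.187 ± 0.0321 TPM for all nuclear protein-coding genes and 9.33 ± 1.38 TPM for the 9604 of these whose mean reached 1 TPM. Msr1 and Marco together made up 65.1%, 64.8% and 63.0% of the summed TPM of the 8 receptors in replicates 1, 2 and 3.

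**Figure D1:**
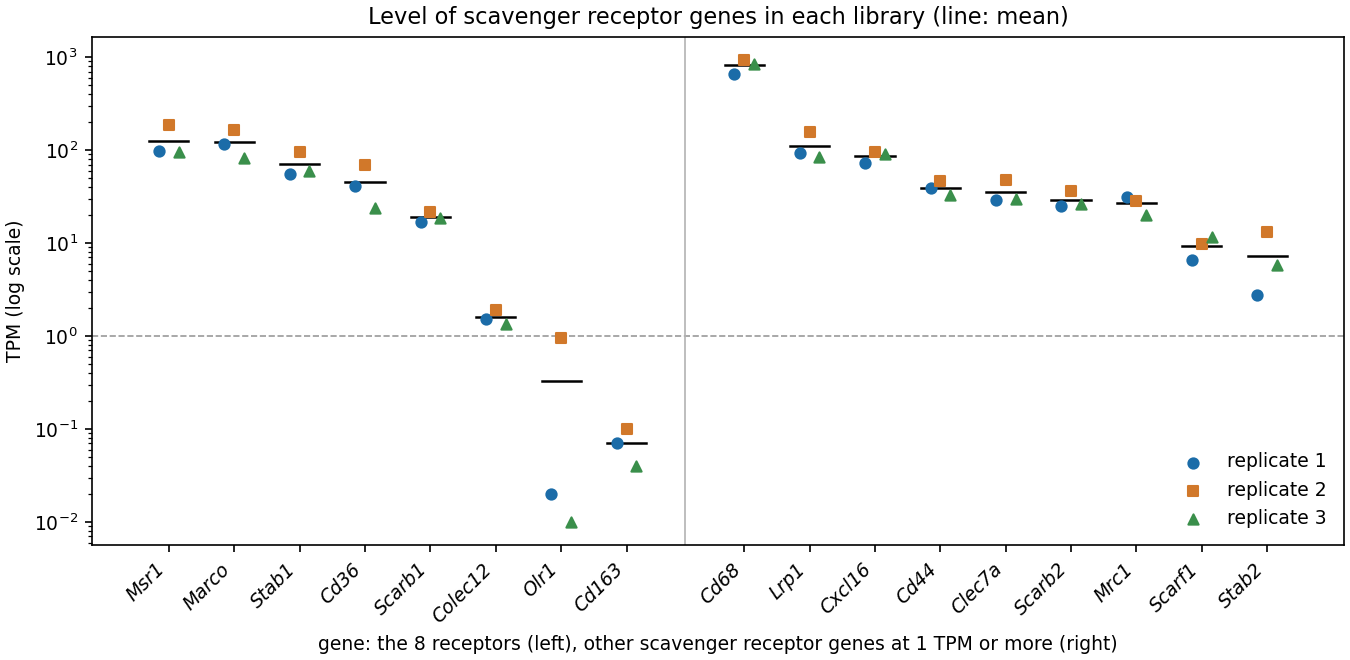
TPM on a log axis for the 8 receptors (left) and the 9 other scavenger receptor genes at 1 TPM or more in every library (right), with 1 symbol per replicate, a black line at the mean of 3 libraries and a dashed line at 1 TPM. Among the 8, Msr1 and Marco are highest with overlapping libraries, Colec12 lies just above 1 TPM, and only replicate 2 of Olr1 comes near that limit.

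The class A receptor Msr1 (chromosome 8, 39581685 to 39642673), which binds acetylated and oxidised LDL and bacterial lipids, had 98.7, 185 and 94.4 TPM in replicates 1, 2 and 3, from 22800, 7532 and 13524 expected counts. Its mean of 126 ± 51.4 TPM (SD, n = 3) ranked 425 among the 9275 nuclear protein-coding genes at 1 TPM or more in every library, in the top 4.58%. Replicate 2 was high in TPM and not in counts: protein-coding CPM were 476, 385 and 333, with replicate 1 highest.

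Marco (chromosome 1, 120474538 to 120505024), which binds bacteria and inhaled particles, had 116, 165 and 82.9 TPM from 17361, 6917 and 9004 counts, a mean of 121 ± 41.0 TPM (SD, n = 3) and rank 444. In protein-coding CPM it had 362, 353 and 222, so replicate 3 lay below the other libraries by 0.69 on the log2 scale. Its libraries overlapped those of Msr1: the ratio of Msr1 to Marco TPM was 0.849, 1.13 and 1.14, and its mean log2 was 0.04 ± 0.24 (SD, n = 3). In these values, which of Msr1 and Marco was higher therefore depended on the library. In a second deposited table, made from the reads, Msr1 was higher in each library, with log2 ratios of 0.13, 0.30 and 0.36. The Msr1 TPM of replicate 2 include 86.1 TPM of the short isoform Msr1-205, described below.

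Both genes encode a collagen-like stalk, and the coding sequence shows how unequal the stalks are. A glycine codon recurred as 1 codon in 3 over 81 repeats in Marco-201 and over 25 in Msr1-201, beside 49 in Colec12-204 and at most 3 in the coding isoforms of Cd36, Scarb1, Stab1 and Olr1 that were read. In Marco-201, 12 of 15 internal coding exons had a length that is a multiple of 9 bases. The number was 4 of 8 in Msr1-201 and 1 of 8 in Colec12-204. In isoforms with at most 3 repeats it was 1 of 10 in Cd36-206, 0 of 10 in Scarb1-201, 10 of 67 in Stab1-201 and 0 of 6 in Olr1-201. In Cd163-201, where the glycine repeats were not counted, it was 7 of 14. Such lengths were most common in Marco-201, which had the most repeats, but rarer in Colec12-204 than in Msr1-201, which had fewer repeats. The exons below, from the stalks of Marco (chr1:120492032-120492130) and Msr1 (chr8:39611632-39611721), show the repeat, with the 9 and 10 in-frame glycine codons in capitals. In the Marco exon the repeat is broken by a gct codon where a glycine is due. In the Msr1 exon the GGT directly after GGA is a glycine codon outside the repeat.
Marco-201 collagen exon: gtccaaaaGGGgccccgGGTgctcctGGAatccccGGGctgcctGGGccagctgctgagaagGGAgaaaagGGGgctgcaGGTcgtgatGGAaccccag
Msr1-201 collagen exon: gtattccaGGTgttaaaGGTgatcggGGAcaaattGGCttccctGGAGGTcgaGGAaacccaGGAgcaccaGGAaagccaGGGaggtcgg

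Colec12 (chromosome 18, 9707595 to 9882644), a class A receptor that ends in a C-type lectin domain, was far lower. It had 1.51, 1.93 and 1.36 TPM from 465, 185 and 303 counts, a mean of 1.60 ± 0.295 TPM (SD, n = 3), and ranked 8944 of 9275. The ratio of Scarb1, its neighbour in the order, to Colec12 was 11.3, 11.1 and 13.8, and their libraries did not overlap.

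Among the class B receptors, Cd36 (chromosome 5, 17781690 to 17888801) had 41.4, 70.0 and 23.8 TPM from 9421, 4451 and 3871 counts, with a mean of 45.1 ± 23.3 TPM (SD, n = 3) and rank 1222. Scarb1 (chromosome 5, 125277087 to 125341094) had 17.0, 21.4 and 18.8 TPM from 3461, 1283 and 2798 counts, with a mean of 19.1 ± 2.20 TPM (SD, n = 3) and rank 2863. The lowest Cd36 library was above the highest Scarb1 library, and the ratio of Cd36 to Scarb1 was 2.43, 3.27 and 1.27, smallest in replicate 3. Both have 12 coding exons in the annotation, and in both an exon with 119 coding bases is followed by one with 74. Lengths shared by this pair were searched for, so the match is a description and no evidence of kinship.

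Stab1 (chromosome 14, 31139013 to 31168641) had 55.2, 95.8 and 60.0 TPM from 14085, 5849 and 9310 counts, a mean of 70.3 ± 22.2 TPM (SD, n = 3) and rank 780. Its libraries overlapped those of Marco above it, with a ratio of Marco to Stab1 of 2.11, 1.72 and 1.38, and those of Cd36 below it, with a ratio of Stab1 to Cd36 of 1.33, 1.37 and 2.52. The deposited bounds of TPM for Stab1 were wide, 50.03 to 60.2 in replicate 1, 79.6 to 109 in replicate 2 and 53.9 to 65.5 in replicate 3. Stab1 shares 112 exonic bases with the opposite-strand gene Nt5dc2, which had 13.3 TPM, and the use of strand in counting is not given in the sources used here, so reads there cannot be assigned with certainty.

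Of the 5 pairs of neighbours in the order, Cd36 with Scarb1 and Scarb1 with Colec12 had libraries that did not overlap. An exact sign-flip test over 3 libraries, two-sided, cannot give a p below 0.25, so the order was described and not tested.

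The 2 remaining receptors had few counts. Cd163 (chromosome 6, 124304656 to 124330527) had 26, 11 and 11 counts, or 0.07, 0.10 and 0.04 TPM. Olr1 (chromosome 6, 129485244 to 129507165) had 7, 16 and 2 counts, or 0.02, 0.96 and 0.01 TPM. Olr1 in replicate 2 owed 84.4% of its TPM to isoforms under 1000 nt, which held 18.4% of its counts, so the 0.96 TPM rest on a few reads. For comparison, a gene with no count could still have 3, or 0.0540, 0.141 and 0.0657 CPM of the total in the 3 libraries, counting error alone being considered. This floor is to be set against counts and not TPM: Cd163 lay above 3 counts in each library, and Olr1 in replicates 1 and 2. In bulk RNA, a few cells with much of an mRNA and many cells with little of it cannot be told apart.

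Between libraries, 1 of the 6 receptors above 1 TPM, Cd36, had a range of 2-fold or more in protein-coding CPM, beside 4.54% of 9604 genes. Cd36 had 197, 227 and 95.5 protein-coding CPM, a 2.38-fold range that 2.25% of genes matched or exceeded. Replicate 3 was the low library, 1.15 below the mean of the other libraries on the log2 scale (log2 ratio of -1.15), and without it the range was 1.16-fold. Scarb1, of the same class, had 72.2, 65.5 and 69.0 protein-coding CPM, a 1.10-fold range that 88.0% of genes matched or exceeded. Msr1, Marco, Stab1 and Colec12 lay between, with ranges of 1.43, 1.63, 1.30 and 1.30-fold.

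**Figure D2:**
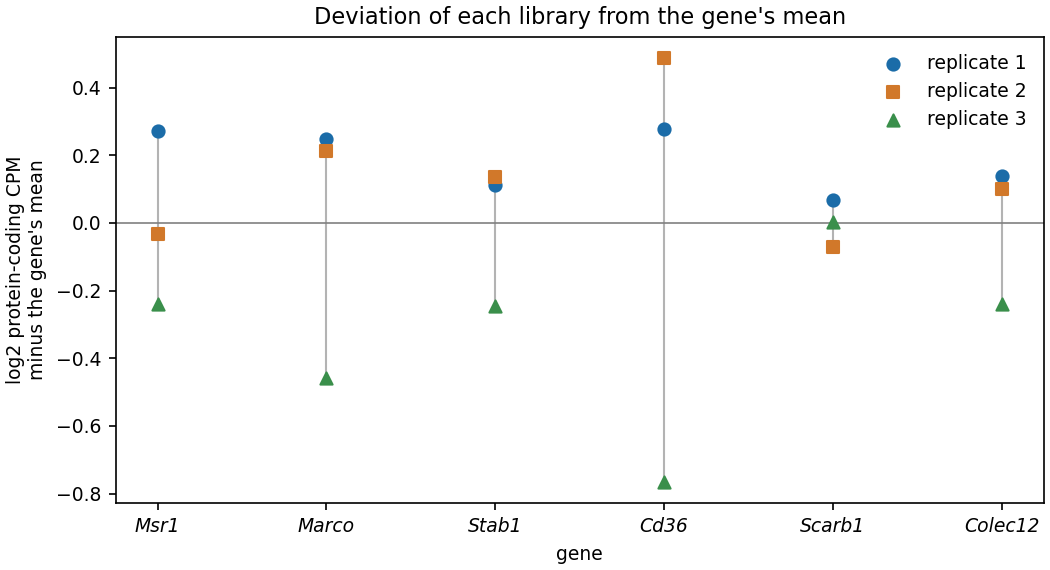
Log2 protein-coding CPM of each library minus the gene's mean over 3 libraries, for the 6 receptors whose mean reached 1 TPM, with 1 symbol per replicate and a grey line over the range. Replicate 3 is the lowest point of 5 genes, farthest down for Cd36, and the points of Scarb1 lie close together.

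Replicate 3 was the lowest library of 5 of the 6 receptors, all but Scarb1, beside 47% of genes. Replicate 1 was the highest of 4 of the 6 in protein-coding CPM, beside 47.5%, and in TPM replicate 2 was the highest of all 6, beside 74.8%. The highest library depended on the scale: with TMM or DESeq2 size factors only Msr1 of the 6 was highest in replicate 1. With these factors too, replicate 3 was the lowest for all but Scarb1. Replicate 3 also had the least Malat1, and the part of nuclear RNA in these differences was not tested. Markers of cells that are known for Cd36 were low: all 5 adipocyte markers were at 0 in every library, the 5 platelet markers summed to 0.51, 1.10 and 0.46 TPM, and the 7 endothelial markers to 9.77, 9.65 and 14.7 TPM, with Tek and Emcn at 0 and most of the sum from Kdr and Vwf. Of the endothelial markers Kdr had 4.24, 3.88 and 9.53 TPM and Vwf 4.57, 3.67 and 3.71 TPM in replicates 1, 2 and 3, and the part of such cells in the Cd36 values was not tested.

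The biological coefficient of variation, the spread between libraries beyond counting noise, was estimated by edgeR over 12361 genes and compared with the trend at the same abundance. It was above the trend for Marco (0.190 against a trend of 0.169) and Cd36 (0.263 against 0.157), beside 23.9% of genes above it. Scarb1 (0.121 against 0.143), Msr1, Stab1, Colec12 and Cd163 were below the trend, and Olr1 was removed by the filter on low counts. Values for single genes are drawn strongly toward the trend with 3 libraries, so only the side of the trend was read, and without replicate 3 none of the 7 receptors fitted was above it.

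The nuclear protein-coding genes whose profile over the 3 libraries was nearest were found among 6643 genes averaging 5 TPM or more, by Euclidean distance of centred log2 protein-coding CPM. For Cd36 they were Psd3 (distance 0.0707), an exchange factor for ARF GTPases, with 56.9, 67.4 and 29.6 protein-coding CPM, and Lpl (distance 0.0861), which encodes lipoprotein lipase, with 946, 1013 and 455. They were the only 2 genes within 0.1 of Cd36, or 0.0301% of genes. Marco had 22 genes within 0.1, nearest N6amt1 (0.0221) and Abce1 (0.0388). Flat profiles had many neighbours: 863 genes, or 13%, were within 0.1 of Scarb1, nearest Alkbh3 (0.00386) and Rnaseh2a (0.00426). For Stab1, 415 genes were that near, with Emc2 (0.00310) and Csad (0.00442) first, and for Msr1 164 genes, with Gtf3c6 (0.0174) and Gusb (0.0185) first. These likenesses rest on 3 libraries and are a description.

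Shares of isoforms were read from a transcript table made from the same alignment as the gene table and from a second table made from the reads. The 2 tables named the same leading isoform for 5 of the 6 receptors above 1 TPM, all but Stab1, beside 90.7% of 8889 genes with at least 2 isoforms. By share of counts in place of TPM the number was again 5, with Stab1 among them and Colec12 not, and without replicate 2 Msr1 and Colec12 also differed between the tables by TPM. The tables also gave different gene levels for Stab1. When each table's TPM were rescaled so that nuclear protein-coding genes sum to 1000000, Stab1 had 186, 237 and 173 in the alignment-based table and 123, 136 and 109 in the read-based one. The other receptors above 1 TPM lay closer, for example Marco with 392, 407 and 238 against 362, 409 and 234, Scarb1 with 57.5, 52.9 and 53.9 against 55.6, 52.7 and 52.4, and Cd36 with 140, 173 and 68.6 against 167, 184 and 82.2. With few counts, Cd163 differed more, with 0.236, 0.247 and 0.115 against 0.756, 0.801 and 0.346, as did Olr1 in replicates 1 and 3.

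Most Msr1 coding RNA was assigned to 2 long forms. The type II isoform Msr1-202 took 61.1%, 36.7% and 48.4% of Msr1 TPM in replicates 1, 2 and 3, and the type I isoform Msr1-201, with the cysteine codons printed above, 30.8%, 10.8% and 39.8%. Of the pair alone, type I was 33.5%, 22.8% and 45.1%, or 33.8 ± 11.2% (SD, n = 3), and 48.2%, 34.2% and 53.3% in the table made from the reads. By counts of the alignment its share was lower, 15.1%, 9.37% and 22.6%. The isoforms differ in annotated length, since Msr1-201 has 1424 nt with 47 nt after its stop codon and Msr1-202 has 3636 nt with 2518 nt after it. Replicate 2 had the lowest and replicate 3 the highest type I share on each of these scales. A short coding isoform of 691 nt, Msr1-203, had 1.92, 9.21 and 3.15 TPM, or 1.95%, 4.97% and 3.34% of the gene.

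In replicate 2 nearly as much Msr1 TPM was assigned to a short noncoding isoform as to both long coding ones. Msr1-205, a processed transcript of 421 nt, had 2.60, 86.1 and 6.97 TPM, or 2.63%, 46.4% and 7.38% of the gene, and 47.0% of it in replicate 2 in the table made from the reads. It held 5.82% of Msr1 counts in that library. Whether this RNA was present or fragments of other isoforms were assigned to it cannot be told apart in these tables: of its bases, 365 lie in exons of Msr1-202, and the remaining 56 are the extra exon shown here (chr8:39627699-39627754), which Msr1-203 also carries.
Msr1-205 extra exon: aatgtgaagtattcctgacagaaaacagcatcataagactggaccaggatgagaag
Counting only protein-coding isoforms of at least 1000 nt, a restriction chosen after the data had been seen, Msr1 had 90.7, 88.1 and 83.3 TPM, or 87.3 ± 3.75 TPM (SD, n = 3), in the deposited TPM of the alignment. This closeness did not extend to other scales. Rescaled to a sum of 1000000 over nuclear protein-coding genes, the same isoforms had 306, 218 and 240 in the alignment-based table and 322, 234 and 250.1 in the read-based one, with replicate 1 highest in both.

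**Figure D3:**
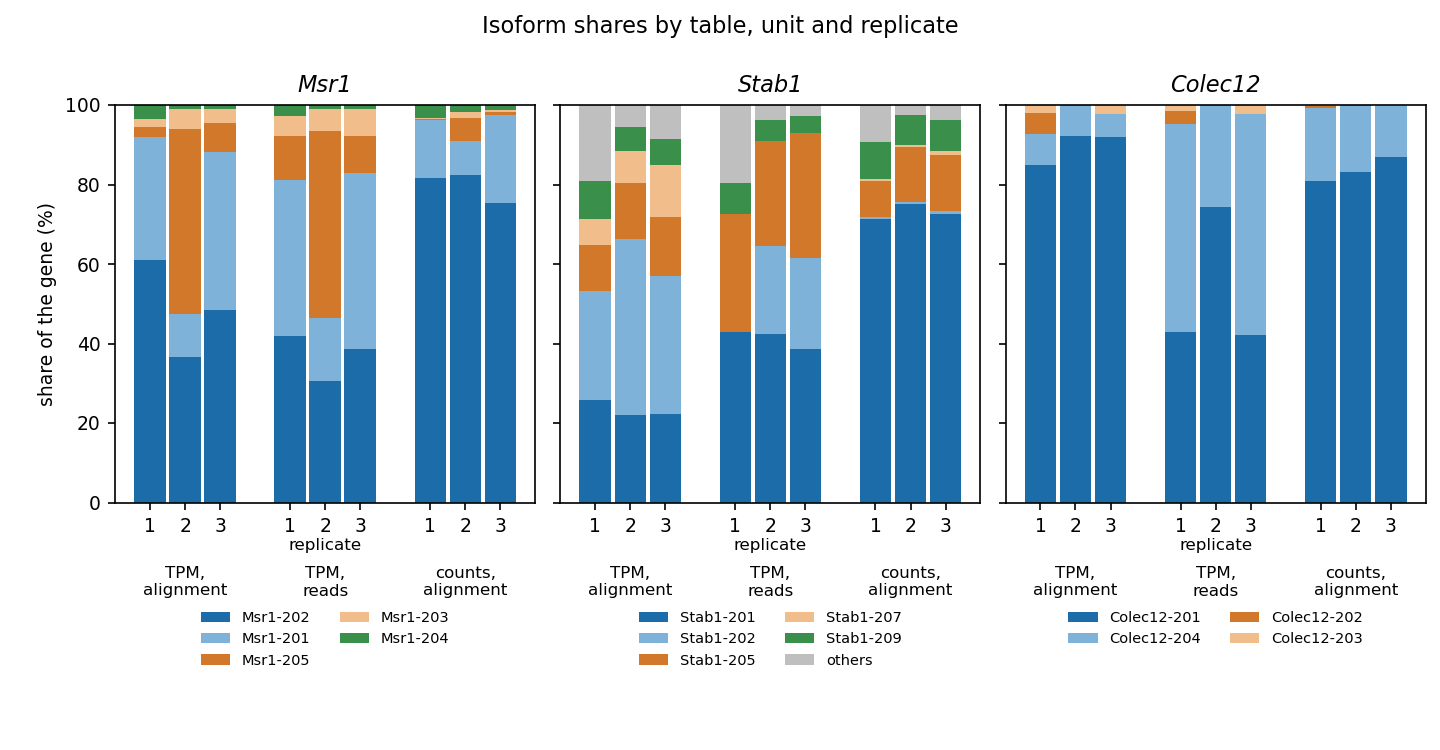
Stacked shares of annotated isoforms, in percent of the gene, for Msr1, Stab1 and Colec12 in replicates 1 to 3, by TPM of the alignment-based table, TPM of the read-based table and counts of the alignment-based table. Msr1-205 fills 46.4% of Msr1 TPM in replicate 2 and 5.82% of its counts, and Stab1-201 holds 71.4% or more of Stab1 counts but 25.9% or less of its alignment-based TPM.

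Stab1 depended most on short and noncoding isoforms among the 4 receptors with the highest mean TPM. Stab1-201, with 69 exons and 2571 codons the full-length coding isoform, held 71.4%, 75.0% and 72.6% of Stab1 counts but 25.9%, 22.0% and 22.2% of its TPM. The processed transcript Stab1-202 of 242 nt took 27.4%, 44.3% and 34.6% of the TPM with under 1% of the counts, and 0%, 22.2% and 23.0% in the table made from the reads. All 242 of its bases lie in exons of Stab1-201. Whether this RNA was present or fragments of Stab1-201 were assigned to it therefore cannot be told apart here. Isoforms annotated as retained introns held 27.7%, 23.7% and 25.4% of the counts, whose part from nuclear RNA was not tested. Replicate 1, with the most Malat1, had the highest share, and replicate 2, with more Malat1 than replicate 3, had the lowest. Long coding isoforms of Stab1 had 14.3, 21.1 and 13.3 TPM, or 16.2 ± 4.21 TPM (SD, n = 3), which is 23.1% of the gene's mean TPM. Rescaled to nuclear protein-coding genes they had 48.2, 52.1 and 38.4, and 52.6, 57.4 and 41.9 in the read-based table, closer than the totals of the gene.

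In the alignment-based table, Colec12 RNA was assigned mainly to Colec12-201, which is annotated as a target of nonsense-mediated decay. Colec12-201 took 84.9%, 92.3% and 91.9% of Colec12 TPM in the alignment-based table and 43.0%, 74.5% and 42.1% in the read-based one, where the coding isoform Colec12-204 of 8024 nt took 52.2%, 25.5% and 55.7%. Long coding Colec12 isoforms had 0.12, 0.15 and 0.08 TPM in the alignment-based table. Rescaled to nuclear protein-coding genes they had 0.405, 0.371 and 0.230, but 2.74, 1.24 and 2.17 in the read-based table. The level of coding Colec12 RNA therefore depended on the table. By alignment, protein-coding isoforms of at least 1000 nt were under 50% of mean TPM for Stab1 and Colec12, 2 of the 6 receptors, beside 15.9% of 9604 genes.

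**Figure D4:**
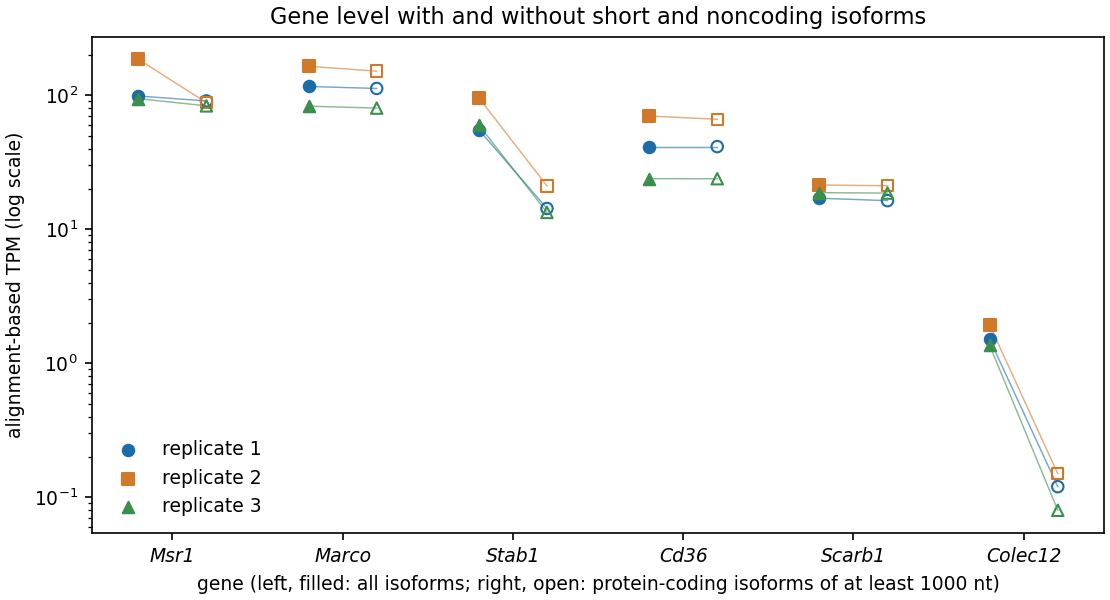
TPM of the alignment-based table, as deposited, on a log axis of the 6 receptors with all isoforms (filled symbols, left) and with protein-coding isoforms of at least 1000 nt (open symbols, right), with lines joining the values of a replicate. Msr1 falls together at 83.3 to 90.7 TPM, Stab1 drops to 13.3 to 21.1 TPM and Colec12 to 0.15 TPM or less, while Marco, Cd36 and Scarb1 hardly move.

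In the alignment-based table, long coding isoforms held 94.5% of the mean TPM of Marco, 97.2% of that of Cd36 and 98.1% of that of Scarb1. For Cd36 the tables differed: the coding isoform Cd36-205 of 702 nt had 0%, 5.47% and 0% of its TPM there, and 22.5%, 15.1% and 20.8% in the read-based table. Marco-201, with 17 exons and 518 codons, took 96.6%, 91.9% and 96.8% of Marco TPM, and Marco-202 the rest. Cd36-203 took 52.2%, 55.5% and 60.3% of Cd36 TPM, and 38.3%, 46.6% and 40.9% in the read-based table, and Cd36-206 took 22.6%, 23.2% and 21.9%. These 2 isoforms have the same number of codons, 472, and 16 and 15 exons, and Cd36-203 was 69.8%, 70.5% and 73.3% of the pair. Both were lowest in replicate 3, with 21.6, 38.9 and 14.4 TPM for Cd36-203 and 9.37, 16.3 and 5.23 TPM for Cd36-206.

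Scarb1 RNA ended mostly in the SR-BI tail. Scarb1-201 took 80.4%, 68.5% and 87.1% of Scarb1 TPM and Scarb1-202 took 15.6%, 30.3% and 12.2%. Of the pair, Scarb1-201 was 83.8%, 69.3% and 87.8%, or 80.3 ± 9.70% (SD, n = 3), and 85.5%, 71.6% and 90.3% in the read-based table. As for Msr1, replicate 2 had the lowest and replicate 3 the highest share of the longer coding form, 509 against 506 codons for Scarb1 and 458 against 354 for Msr1.

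**Figure D5:**
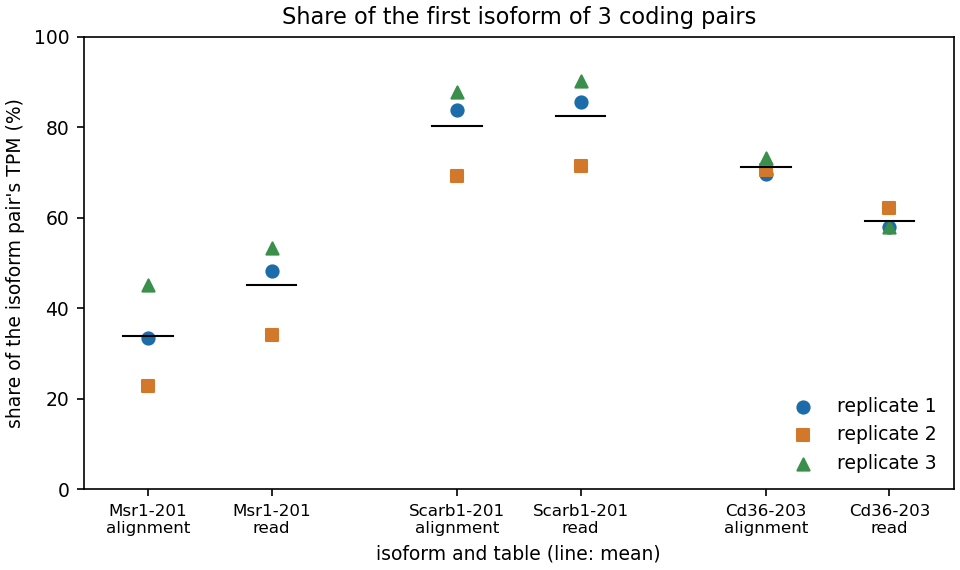
Share in percent of Msr1-201, Scarb1-201 and Cd36-203 in the TPM of their pair (with Msr1-202, Scarb1-202 and Cd36-206), by replicate, in the alignment-based and the read-based table, with a line at the mean of 3 libraries. Replicate 2 is the lowest point for Msr1-201 and Scarb1-201 in both tables, and Cd36-203 varies by under 5 percentage points.

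Among 20 other scavenger receptor genes, of the same and of other classes, 9 reached 1 TPM in each library, a share close to the 42.1% of all nuclear protein-coding genes, and the list's median was 0.303 TPM. Cd68, a class D receptor of late endosomes, had 814 ± 140 TPM (SD, n = 3) and made up 51.2%, 49.0% and 59.1% of the summed TPM of all 28 scavenger receptor genes, while the 8 receptors described here made up 25.6%, 28.3% and 19.7%. Lrp1, a receptor for many protease and lipoprotein ligands, had 111 ± 38.3 TPM, Cxcl16, which also acts as a chemokine, 86.3 ± 12.4 TPM and Cd44, the hyaluronan receptor, 39.6 ± 6.57 TPM (SD, n = 3 each). In the joint order Msr1 and Marco had ranks 2 and 3, Stab1 6, Cd36 7 and Scarb1 12. Stab2, the relative of Stab1, was listed at 7.22 TPM, but 93.8%, 94.7% and 93.3% of that was assigned to isoforms not annotated as protein coding, and its long coding isoform had 0.42 TPM.

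Lists of genes that work with these receptors were put together by hand, and their counts stand beside the same 42.1% of all nuclear protein-coding genes. Among transcription factors of macrophage and lipid genes, 10 of 10 passed the limit of 1 TPM, led by Spi1 (122 ± 22.7 TPM), Maf (105 ± 26.2 TPM), Nfe2l2 (68.6 ± 6.96 TPM) and Irf8 (62.6 ± 15.6 TPM; SD, n = 3 each). Of these 10, 2 were lowest in replicate 3 in protein-coding CPM, as Cd36 was, beside the 47% of genes given above.

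Of 10 membrane partners and adaptors 9 passed, among them the tetraspanin gene Cd81 (51.2 ± 19.9 TPM), the integrin subunit gene Itgb1 (102 ± 19.6 TPM), the kinase gene Lyn (105 ± 32.1 TPM) and Tlr2 (42.1 ± 3.02 TPM; SD, n = 3 each). Pdzk1, the adaptor that holds SR-BI at the surface of hepatocytes, had 0.04 TPM in replicate 1 and was listed at 0 in the other libraries. All 10 genes of cholesterol handling passed, with Apoe at 1301 ± 421 TPM, Npc2 at 331 ± 61.5 TPM, Plin2 at 225 ± 55.8 TPM and Lipa at 193 ± 34.4 TPM (SD, n = 3 each). Beside a Cd163 level near 0, 8 of 10 genes of hemoglobin and heme handling passed, including the ferritin genes Fth1 (21873 ± 2497 TPM) and Ftl1 (8626 ± 205 TPM) and the heme oxygenase genes Hmox1 (128 ± 32.5 TPM) and Hmox2 (95.6 ± 29.4 TPM; SD, n = 3 each). Ferritin genes have many processed copies, among which reads may be divided.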

How the data were processed

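Each library came, per the file headers, with the authors' gene table and transcript table of expected counts, TPM, FPKM and the lower and upper bounds of TPM (a signal per gene), and a second transcript table with estimated counts and TPM. Per the deposited description files, the build was mm10 with GENCODE M21, the first 2 tables came from an alignment and the second transcript table from the reads. Which programs, versions and strand setting were used is not given in the sources used here. Such programs divide reads among isoforms by a model, so short isoforms can have a high TPM from few reads.

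Of 81881 identifiers, 55536 matched the annotation. Protein-coding CPM is a gene's share of the expected counts on nuclear protein-coding genes, multiplied by 1000000. The profile distance used an offset of 0.1. The read-based table held 62887284, 27362069 and 55096993 estimated counts. Depth limits low genes most in replicate 2. Pairs of libraries differed by 88.6 to 119 times the sampling noise (chi-square per degree of freedom), so none was taken as a repeat deposit of another. This does not show that they are separate animals. Expected counts were rounded for edgeR 4.0.16 in R 4.3.3 (intercept only, TMM, its expression filter), which was tested on simulated data. Size factors and dispersions of DESeq2 1.42.0 served as alternatives, and the rest was done with pandas 2.3.3, numpy 2.4.6 and matplotlib 3.10.9 under Python 3.11.15.

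The 8 genes and all lists were chosen with earlier results of these data known. Named were the 8 receptors, the 4 genes of highest mean TPM of each list (2 for marker lists, of which the text gives those that bear on a result), the 2 nearest genes in profile of each receptor with at least 5 TPM and the 2 leading isoforms of each receptor above 1 TPM. Cx3cr1, Pecam1, Tek, Emcn, Stab2, Pdzk1, Nt5dc2 and further isoforms fall outside this rule and were named after their values were seen. Alternatives were the read-based table, FPKM, rescaled TPM, other limits and size factors, and leaving out each replicate. Untreated libraries were not analysed here. No protein sequences were used here.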

Additional observations from a re-analysis of the deposited data

How the results depend on the processing

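The number of neighbours in the order whose libraries do not overlap was 2, and 1 in the read-based table, where Cd36 stood above Stab1. Leaving out each replicate gave 2 to 4, and without replicate 2 Marco stood above Msr1. With protein-coding isoforms of at least 1000 nt, an alternative chosen after seeing the data, the order was Marco, Msr1, Cd36, Scarb1, Stab1 and Colec12. The number of receptors with a 2-fold range was 1, and 3 with no minimum TPM, which adds Cd163 and Olr1. It was 0 to 1 when each replicate was left out, 0 without replicate 3. The number of receptors above the dispersion trend was 2, and 0 to 3 when each replicate was left out, 0 without replicate 3. Receptors with the same leading isoform in both tables numbered 5, and 3 to 5 when each replicate was left out, 3 without replicate 2. By counts it was also 5, with Stab1 in place of Colec12. The count of receptors at 1 TPM in every library was 6, and 5 in the read-based table, with a limit of 5 TPM or with long coding isoforms, which leave out Colec12. Of the 14 levels and leading shares of single receptors, 9 moved by more than 1 SD in the read-based table, where only 20.5%, 21.4% and 7.95% of TPM fell on nuclear protein-coding genes. Leaving out 1 of 3 libraries cannot move a mean by 1 SD of the same libraries, so that limit says nothing there. Olr1 averaged 0.015 TPM without replicate 2, against 0.33 TPM with it. Long coding isoforms moved the levels of Stab1 and Colec12. No paired analysis was possible because the series holds 1 group. Depth limits Olr1 and Cd163, with at most 26 counts in a library.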
